A study of Homo sapiens with 18 samples.

Results

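The MCM genes examined here were MCM2, MCM3, MCM4, MCM5, MCM6, MCM7 and MCM10. They were chosen by symbol, as every probe set whose single gene symbol in the platform annotation is one of these names, and this gave 12 probe sets of 7 genes among the 22283 probe sets of the array. A filter on low or steady signals, with an interquartile range of at least 0.25 over the arrays and a signal of at least 100 on at least 25% of them, left 7 MCM probe sets of 6 genes among 3057 tested probe sets. The other 5, among them the only one for MCM10, are described from a second fit that took in all 22215 non-control probe sets. MCM2 to MCM7 form the ring-shaped hexamer at the core of the replicative DNA helicase. The ring is loaded on origins by ORC, CDC6 and CDT1, and it becomes active when CDC45 and the GINS complex join it. MCM10 is not part of the ring, and it binds the loaded helicase and is needed for DNA unwinding to begin.

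The cells were MSTO-211H, an established line of human malignant mesothelioma. The treatments were piroxicam at 760 µM (P), a cyclooxygenase inhibitor, cisplatin at 4.5 µg/mL (C), which forms adducts with DNA, and the combination of both at these doses (P/C), each for 8 h or 24 h beside untreated cells. At 8 h there were 2 arrays per group, and at 24 h untreated and P/C cells had 2 arrays each and P and C cells 3 each, 18 arrays in all. All groups share the same cell line and culture medium, so the data describe 1 line. The study calls the replicates biological, and the p values measure only the spread between these samples. The same 2 untreated arrays serve as the control of all 24 h treatments.

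Of 14 mesothelial and mesothelioma markers, 5 had a signal of at least 100 on all arrays, namely KRT8, KRT18, VIM, TM4SF1 and CAV1. The defining markers MSLN and CALB2 had mean log2 signals of 2.30 and 3.49, and the array medians were 2.72 to 2.83. None of 6 leukocyte and erythroid markers reached a signal of 100 on any array, with summed signals of 20.4 to 23.6. Of 7 stromal and endothelial markers, COL3A1 alone reached it on some array, with a highest log2 signal of 7.69, and the summed signals were 43.7 to 239.

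Some 24 h arrays stood apart from their groups. P/C replicate 1 correlated best with C replicate 3 (r = 0.963 over the tested probe sets), while P/C replicate 3 correlated best with P replicate 1 (r = 0.955) and C replicate 1 with untreated replicate 1 (r = 0.939). A score of 58 probe sets that responded to piroxicam at 8 h, none of them an MCM probe set, was 1.49 to 1.52 on the P arrays relative to the untreated mean. It was 0.34 to 0.39 on the C arrays, 0.45 on P/C replicate 1 and 1.30 on P/C replicate 3. The median of 10 p53 target genes was 0.22 on C replicate 1 against 1.36 and 1.60 on the other C arrays, and 1.64 and 1.46 on P/C replicates 1 and 3. The MCM results and the counts of the gene lists that rest on these arrays are therefore given with and without them, where a call changed or a list's count moved by over 1.5 times without 1 array. For the lists and for additivity these values were added after the data had been seen. Leaving out a P/C array leaves 1 P/C array, whose spread is then taken from the other groups.

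Promoter windows of 5 of the 7 genes were found in the RefSeq promoter table (GRCh38.p14), and none for MCM4 and MCM5. Each had 250 bases before the start of transcription and 50 from it. The words of the E2F site, TTTCCCGC, TTTCGCGC, TTTGCCGC and TTTGGCGC, were searched on both strands, since E2F transcription factors drive genes needed for entry into S phase. MCM7 has 3 windows in the table, of which the one at the start of the gene is used here and the others hold no match. A match occurred in the windows at the gene start of 4 of the 5 genes. Among all 35116 promoter windows of this length, which count each start of a gene, 3.31% held one. The windows with a match are shown 5′ to 3′ along the gene, with the E2F words in capitals. Capitals that run on for longer than 1 word are overlapping matches on opposite strands. They lie at chr3:127598161-127598460 on the plus strand for MCM2, and on the minus strand at chr6:52284693-52284992 for MCM3, chr2:135876394-135876693 for MCM6 and chr7:100101348-100101647 for MCM7.
MCM2: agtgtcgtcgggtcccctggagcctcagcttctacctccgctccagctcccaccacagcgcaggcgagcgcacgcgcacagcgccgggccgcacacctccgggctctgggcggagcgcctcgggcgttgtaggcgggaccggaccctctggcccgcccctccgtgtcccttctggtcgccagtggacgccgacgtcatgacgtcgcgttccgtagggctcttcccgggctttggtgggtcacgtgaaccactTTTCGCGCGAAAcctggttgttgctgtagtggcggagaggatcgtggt
MCM3: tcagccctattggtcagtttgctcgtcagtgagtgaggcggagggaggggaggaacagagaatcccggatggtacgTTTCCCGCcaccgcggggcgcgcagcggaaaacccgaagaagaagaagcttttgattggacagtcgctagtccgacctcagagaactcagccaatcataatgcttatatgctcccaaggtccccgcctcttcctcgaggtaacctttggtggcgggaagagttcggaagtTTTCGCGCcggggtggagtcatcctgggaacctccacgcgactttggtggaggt
MCM6: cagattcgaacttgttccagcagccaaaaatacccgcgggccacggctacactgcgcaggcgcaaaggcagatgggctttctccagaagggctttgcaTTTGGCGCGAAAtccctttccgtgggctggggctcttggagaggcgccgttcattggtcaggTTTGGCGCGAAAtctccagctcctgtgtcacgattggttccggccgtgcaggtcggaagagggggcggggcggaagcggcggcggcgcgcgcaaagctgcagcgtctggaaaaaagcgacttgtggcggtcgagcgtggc
MCM7: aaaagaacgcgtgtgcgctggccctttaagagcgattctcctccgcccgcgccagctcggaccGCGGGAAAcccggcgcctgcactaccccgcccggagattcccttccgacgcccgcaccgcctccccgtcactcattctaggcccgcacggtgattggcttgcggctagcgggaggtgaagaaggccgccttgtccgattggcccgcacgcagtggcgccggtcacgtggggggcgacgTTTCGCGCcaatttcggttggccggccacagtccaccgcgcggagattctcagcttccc

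Counted from the start of transcription, with no position 0, the matches of MCM2 covered positions 3 to 14. In MCM3 they covered -174 to -167 and -4 to 4, and in MCM7 -187 to -180 and -9 to -2. MCM6 held 2 such stretches, from -152 to -141 and from -90 to -79, each made of TTTGGCGC on the gene's strand overlapping TTTCGCGC on the other. The window of MCM10, at chr10:13161308-13161607 on the plus strand, held none of these words, which were searched as exact matches only. The CHR element TTTGAA, found in 15.2% of all windows, was in none of the 5. These matches describe letters only, and no binding was measured here.

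After 24 h of piroxicam alone, every MCM probe set was lower on all 3 P arrays than on both untreated arrays. This held for 12 of 12 MCM probe sets, against 17.3% of all 22215 probe sets. MCM3, both tested MCM4 probe sets, MCM5 and MCM6 fell, which is 5 of the 7 tested, against 11.4% of tested probe sets called lower (limma, adjusted p of at most 0.05 and a log2 fold change of at least 1 in size, the limit used throughout). Their log2 fold changes ran from -1.08 for MCM6 to -2.39 for MCM4. The median over the 7 was -1.48, against -0.22 over all tested probe sets. In a bulk RNA measurement of this kind, fewer cells in S phase and less MCM RNA per cell cannot be told apart.

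MCM4, a subunit of the ring, changed the most among the tested members. Its probe set 212141_at had log2 signals of 7.72 and 8.07 on the untreated arrays and 5.38, 5.52 and 5.68 on the P arrays at 24 h. On the C arrays it was 7.90, 7.85 and 7.78, and on the P/C arrays 7.87 and 6.54. The P arrays lay apart from every other array, and the P/C arrays differed from each other by more than the untreated pair. The log2 fold change of P against untreated was -2.37 ± 0.30 (SE), with a limma adjusted p of 0.000157. The second tested probe set, 222036_s_at, was 7.36 and 7.98 on the untreated arrays and 5.16, 5.55 and 5.13 on the P arrays. It was 7.49, 7.33 and 7.14 on the C arrays and 6.96 and 5.76 on the P/C arrays. It gave -2.39 ± 0.30, with a limma adjusted p of 0.000157, so both probe sets showed the same change within their errors.

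The other MCM4 probe sets lay outside the filter. Probe set 222037_at was 4.37 and 4.88 on the untreated arrays and 1.76, 3.03 and 2.39 on the P arrays at 24 h. It was called lower in the fit of all probe sets (limma adjusted p = 0.0032), but not without untreated replicate 2 (adjusted p = 0.0622). Since 2 of the 3 P arrays lay under their array medians, the fold is given as a bound, with each P value raised to its array's median where it was lower, and it was at least 3.39-fold lower. Probe set 212142_at stayed between 2.07 and 3.72 on all 18 arrays, near the array medians, and its log2 fold change of -0.86 missed the threshold (adjusted p = 0.149). All 3 of its P values lay under the array medians, so no size against untreated is read from it.

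MCM3, which contacts ORC and CDC6 when the ring is loaded, was 8.64 and 8.83 on the untreated arrays and 7.03, 7.32 and 7.18 on the P arrays at 24 h. The C arrays were at 8.80, 8.01 and 8.40, and the P/C arrays at 8.57 and 7.33. The groups P and untreated did not overlap, and P/C replicate 3 lay close to the P arrays. The log2 fold change of P against untreated was -1.56 ± 0.31, with a limma adjusted p of 0.00258.

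MCM5, which with MCM2 forms the gate of the ring, was measured by 2 probe sets that differed. Probe set 216237_s_at was 7.81 and 6.98 on the untreated arrays and 5.37, 6.62 and 5.75 on the P arrays. Its untreated arrays lay further apart than the lower of them lay from the nearest P array. The log2 fold change was -1.48 ± 0.39 (adjusted p = 0.0108), and without untreated replicate 1 it was -1.07 (adjusted p = 0.127), no longer past the limit. Probe set 201755_at, outside the filter, was 4.40 and 4.08 on the untreated arrays and 3.47, 3.98 and 3.96 on the P arrays, with a log2 fold change of -0.44 (adjusted p = 0.442).

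MCM2 was 8.54 and 8.42 on the untreated arrays and 7.04, 8.00 and 7.41 on the P arrays, a wide spread within P but no overlap. Its log2 fold change of -0.997 ± 0.33 had an adjusted p of 0.033 and lay just short of the fold limit, so it was not called. Its interquartile range over the arrays, 0.27, was also just above the filter limit. MCM7, a ring subunit, gave -0.57 ± 0.31 by probe set 210983_s_at (adjusted p = 0.177, 95% interval -1.22 to 0.09). By probe set 208795_s_at, which lay outside the filter with an interquartile range of 0.23, it gave -0.55 ± 0.22 (adjusted p = 0.186). Both MCM7 probe sets therefore showed differences of like size that did not pass the test.

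MCM10 had signals under 100 on all 18 arrays, with log2 signals of 4.39 and 5.13 on the untreated arrays and 2.08, 2.68 and 2.49 on the P arrays at 24 h. The C arrays were at 4.46, 4.67 and 4.80 and the P/C arrays at 4.61 and 3.43. The P arrays were the lowest of the 18, and all 3 of their values lay under the array medians of 2.72 to 2.83, so only a bound on the fold is given. MCM10 was at least 3.89-fold lower in P than in untreated cells, and the fit of all probe sets called it lower (limma adjusted p = 0.0018), as it did 2.67% of probe sets. MCM10 and MCM4 222037_at were the called members among the 5 outside the filter.

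**Figure D1:**
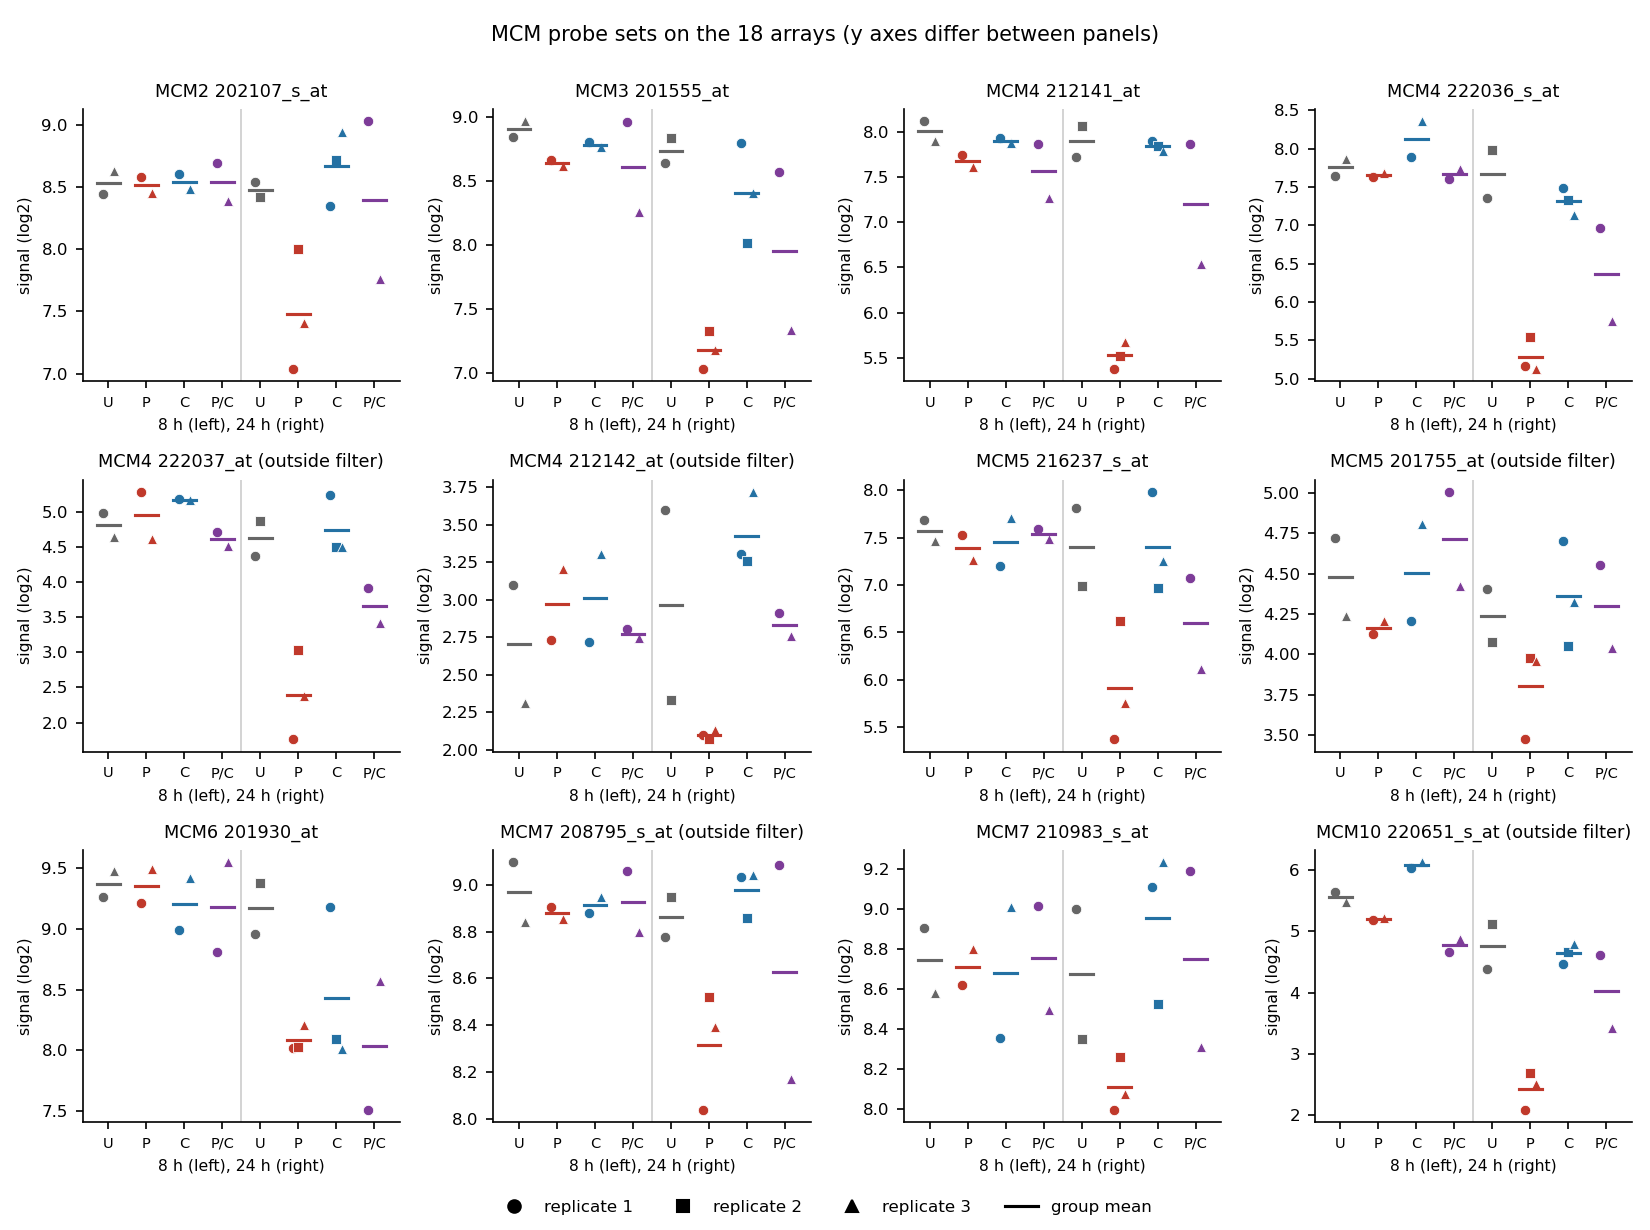
Log2 signal of the 12 MCM probe sets on each of the 18 arrays, 1 panel per probe set, with untreated (U), P, C and P/C at 8 h on the left of each panel and at 24 h on the right, the replicate number as the symbol and the group mean as a line. The 3 P arrays at 24 h lie below both untreated 24 h arrays in all 12 panels, while the 8 h groups lie close together in most panels.

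**Figure D2:**
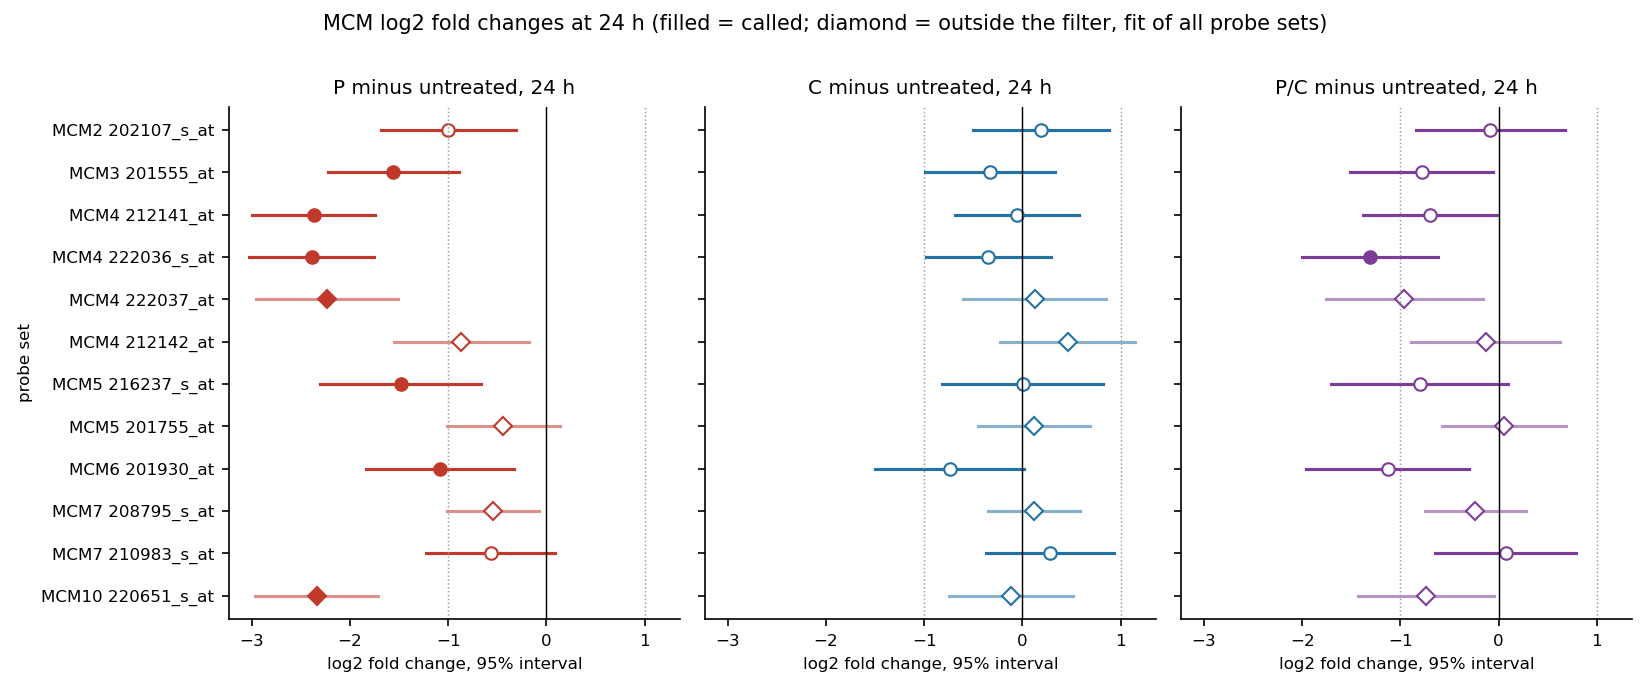
Log2 fold change with its 95% interval (x axis) for each MCM probe set (y axis) in P, C and P/C cells against untreated cells at 24 h, with filled symbols for called values, diamonds for probe sets outside the filter and dotted lines at the fold limit. P has 7 filled symbols, C none and P/C 1.

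The MCM values of P were also set against the shift of all probe sets. The median of all tested probe sets was -0.22 in the deposited values and -0.01 after quantile normalization of them. Relative to that median, the 12 MCM probe sets differed by -0.21 to -2.17 in the deposited values and by -0.36 to -2.33 after quantile normalization, the last being that of MCM10, whose P values lay under the array medians. The balance of all calls did shift, with 349 probe sets called lower and 96 higher in the deposited values and 235 lower and 158 higher after quantile normalization.

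Cisplatin alone for 24 h gave no called MCM probe set, 0 of 7, and none of the 3057 tested probe sets was called, 0%, by limma, although 421 of the 3057 had an unadjusted p under 0.05. None of the 7 MCM probe sets was among those 421. In 0 of 12 did the C arrays lie wholly below or above the untreated arrays. Of all 22215 probe sets, the C arrays lay wholly below in 2482 and wholly above in 2493. The median log2 fold change was -0.05 over the 7, and -0.10 over all tested probe sets. The intervals were wide, for example -0.99 to 0.34 for MCM3 and -0.68 to 0.58 for MCM4 212141_at, so changes within them are not detectable with these arrays. Without C replicate 1, 118 of 2980 probe sets were called, 2.58% lower and 1.38% higher, with 0 of the MCM probe sets and MCM2 outside the filter. With array weights 134 of the 3057 were called, 1 of them an MCM probe set, MCM6, at -1.01 (adjusted p = 0.0335).

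MCM6 ordered the 24 h arrays differently from the other tested MCM probe sets. It was 8.96 and 9.38 on the untreated arrays, 8.02, 8.03 and 8.21 on the P arrays and 9.18, 8.10 and 8.01 on the C arrays. On the P/C arrays it was 7.51 and 8.57. C replicates 2 and 3 thus lay with the P arrays and C replicate 1 with the untreated arrays, and P/C replicate 1 was the lowest of all, where the other 6 tested MCM probe sets were lower on P/C replicate 3. The log2 fold change of P was -1.08 ± 0.36 (limma adjusted p = 0.0338). The call was lost when any of the 5 arrays compared was left out (adjusted p = 0.0617 to 0.236), with no filter (0.101) and after quantile normalization (0.0522). That of C was -0.74 ± 0.36 (adjusted p = 0.366), and -1.12 without C replicate 1 (adjusted p = 0.0609). Without that array and P/C replicate 1 together it was -1.12 with an adjusted p of 0.0189, and 3.41% of tested probe sets were then called lower.

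Among the 18 arrays MCM6 correlated with the mean of the other tested MCM genes at r = 0.53, and at r = 0.25 over the 15 arrays other than P at 24 h. MCM3 had r = 0.96 and 0.90, and MCM5 216237_s_at 0.92 and 0.82. MCM2 and MCM7 210983_s_at were like MCM6 in this respect, with r = 0.33 and 0.25 over the 15 arrays. The arrays share their groups, so these values are descriptions only.

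P and C compared with each other showed the MCM genes lower in P. Here 5 of the 7 tested MCM probe sets fell, MCM2, MCM3, both of MCM4 and MCM5, against 7.65% of all tested. The P arrays lay below all 3 C arrays in 11 of 12 MCM probe sets, MCM6 being the exception, against 11.6% of all probe sets. The log2 fold changes were -2.32 and -2.04 for MCM4, -1.49 for MCM5, -1.23 for MCM3 and -1.19 for MCM2, with limma adjusted p values from 0.000152 to 0.00907. MCM7 210983_s_at had -0.84 with an adjusted p of 0.0361, under the fold limit. MCM6 had -0.34 (adjusted p = 0.45). Without C replicate 1 and P/C replicate 1, which stood apart, 5 of the 7 were again called, against 8.17% of all tested called lower, and MCM6 had 0.03 (adjusted p = 0.932). The fit of all probe sets, which called 1.71% lower, also called MCM10, MCM4 222037_at and MCM4 212142_at. With the P values raised to the array medians as above, these were at least 3.60-fold, at least 3.69-fold and at least 1.55-fold lower in P than in C. The last bound lies below the fold limit of 2, and all 3 P values of that probe set lay under the array medians. The median of all tested probe sets was -0.12 in the deposited values and -0.002 after quantile normalization, and the balance of all calls went from 234 lower and 98 higher to 169 lower and 140 higher.

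In P/C cells at 24 h, MCM4 222036_s_at alone fell among the 7 tested MCM probe sets, by 1.31 ± 0.33 on the log2 scale (limma adjusted p = 0.026), and 4.22% of tested probe sets were called lower. The call did not hold with no filter (0.0576), without untreated replicate 2 (0.245), without P/C replicate 3 (0.186), with array weights (0.0689), with the arrays of the comparison alone (0.146) or with the replicate number as a block (0.0632). MCM6 had -1.13 (adjusted p = 0.0703, and 0.0309 without C replicate 1), MCM5 -0.80 (0.215), MCM3 -0.78 (0.141) and MCM4 212141_at -0.69 (0.167). MCM2 and MCM7 210983_s_at had -0.08 and 0.07. Both P/C arrays lay below both untreated arrays in 4 of 12 MCM probe sets, against 20.5% of all probe sets.

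The P/C result depended on which of its arrays was used. Relative to the untreated mean, the median of the 7 tested MCM probe sets was -0.16 on P/C replicate 1 and -1.29 on P/C replicate 3. On the P arrays it was -1.70, -1.14 and -1.56, and on the C arrays 0.01, -0.33 and -0.15. P/C replicate 3 thus lay with the P arrays and P/C replicate 1 with the C arrays, as they did in the score of piroxicam-responsive probe sets. Without P/C replicate 1, the log2 fold changes were -1.40 for MCM3 and -1.36 and -1.91 for the MCM4 probe sets. Without P/C replicate 3, MCM4 212141_at had -0.03 and MCM6 had -1.66. Each of these settings leaves 1 P/C array, so only effect sizes are given. With 2 arrays, a difference between these arrays and the effect of P/C cannot be told apart.

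**Figure D3:**
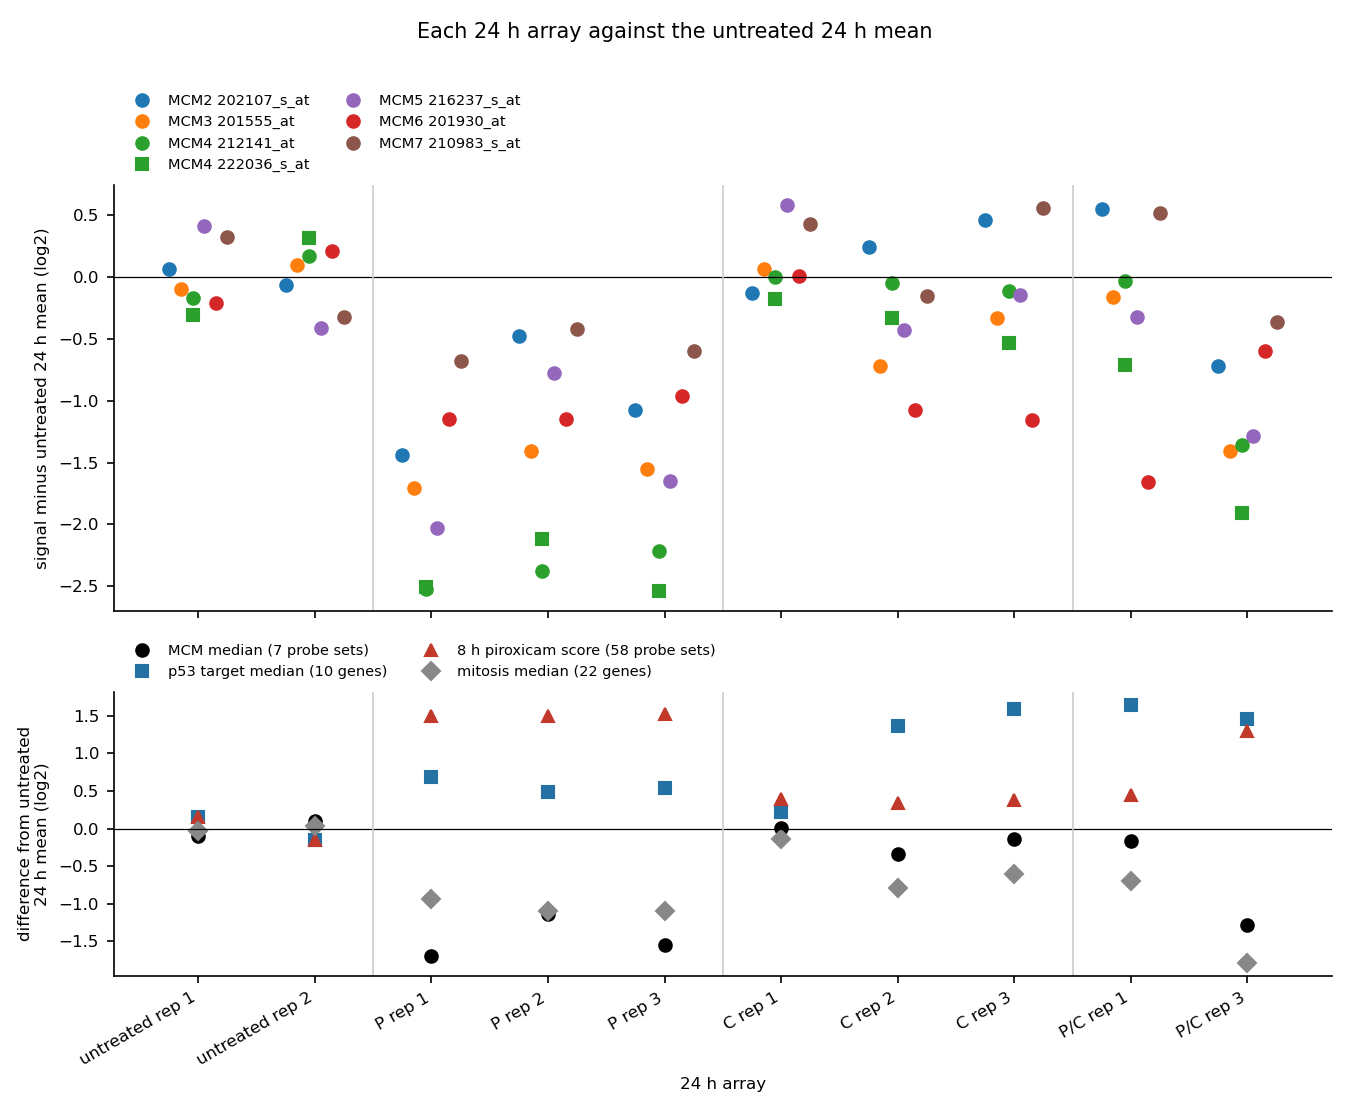
Upper panel, signal of each tested MCM probe set on each 24 h array minus the untreated 24 h mean (log2), and lower panel, the median of the 7 MCM probe sets, of 10 p53 target genes and of 22 mitosis genes and the score of 58 piroxicam-responsive probe sets on the same arrays. P/C replicate 3 has an MCM median of -1.29 with a piroxicam score of 1.30, and P/C replicate 1 an MCM median of -0.16 with a score of 0.45, while MCM6 is the lowest point on C replicates 2 and 3 and on P/C replicate 1.

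Against P, the P/C cells had higher MCM4 212141_at, by 1.68 ± 0.30 (limma adjusted p = 0.0453), 1 of 7 MCM probe sets against 0.164% of all tested called higher. Without P/C replicate 1 the difference was 1.01, and without P/C replicate 3 it was 2.34. MCM3 and MCM4 222036_s_at differed from P by 0.15 and 0.48 without P/C replicate 1. Without P/C replicate 3 they differed by 1.39 and 1.68. These settings leave 1 P/C array, so only effect sizes are given for them. Against C, none of the 7 was called, while 0.0981% of all tested were. An unadjusted p under 0.05 was found for 2 of the 7 and for 453 of all 3057. Without P/C replicate 1, MCM3, MCM4 212141_at and MCM4 222036_s_at differed from C by -1.07, -1.30 and -1.56. Without P/C replicate 3 they differed by 0.17, 0.03 and -0.36, again with 1 P/C array left in either setting. The test of whether P/C departed from additivity of both drugs gave 0 of 7, and 0% of all tested. Its unadjusted p was under 0.05 for 3 of the 7 and for 426 of all 3057. The departure was 1.73 ± 0.42 for MCM4 212141_at (adjusted p = 0.174) and 1.10 ± 0.44 for MCM3 (adjusted p = 0.282). The departure without P/C replicate 3 was 1.72, 2.40 and 2.03 for MCM3, MCM4 212141_at and MCM4 222036_s_at. Without P/C replicate 1 it was 0.48, 1.07 and 0.82 in the same order. With 1 P/C array left in either setting, these are effect sizes only.

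At 8 h no MCM probe set passed the test under any treatment by limma. This was 0 of 7 for P, with 0.491% of all tested called, for C, with 0%, and for P/C, with 0.622%. It was also 0 of 7 for the piroxicam main effect over both arms, with 1.9%. None of the 7 had an unadjusted p under 0.05 in any of these comparisons. Of all 3057 tested probe sets, 293 had one with P, 35 with C, 362 with P/C and 589 for the main effect. A fit of the 8 h arrays alone, with the replicate number as a block, called more of the 3057 probe sets. It called 72 for P, 0 for C, 92 for P/C and 73 for the main effect, with 0 MCM probe sets in each. MCM4 212141_at was 8.11 and 7.89 on the untreated arrays, 7.75 and 7.61 with P, 7.93 and 7.87 with C and 7.87 and 7.27 with P/C. The log2 fold changes of the 7 with P lay between -0.33 and -0.02. MCM10 at 8 h had 5.64 and 5.48 untreated, 5.18 and 5.22 with P, 6.04 and 6.13 with C and 4.67 and 4.88 with P/C. All arrays with piroxicam lay below all arrays without it for MCM10 and for MCM4 212141_at, 2 of 12 MCM probe sets against 4.49% of all probe sets. For MCM4 212141_at the margin was slight, with 7.867 on P/C replicate 1 and 7.871 on C replicate 3. For MCM10 the piroxicam main effect of -0.84 ± 0.23 had an adjusted p of 0.105 in the fit of all probe sets.

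Untreated cells at 24 h did not differ from those at 8 h in any of the 7 by this test, with 0.0981% of all tested called and log2 fold changes of -0.20 to -0.06. The difference between the P effects at 24 h and at 8 h was called for MCM4 222036_s_at alone, at -2.29 ± 0.44 (limma adjusted p = 0.0495), 1 of 7 against 0.196% called lower. MCM4 212141_at had -2.04 ± 0.44 (adjusted p = 0.111) and MCM3 -1.29 ± 0.46 (adjusted p = 0.259). The single call was lost when any of the arrays compared was left out. For P/C, none of the 7 differed between the times, with 0.0654% of all tested called. An unadjusted p under 0.05 was found for 1 of the 7 and for 323 of all 3057.

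Genes that load and start the helicase were also among those that fell in P cells. Of 26 listed genes of origin licensing and helicase activation, 11 were tested with 1 probe set each, and 7 of them fell in P at 24 h, against 10.5% of all 2203 genes tested in this way, and none rose. Their median was -1.37, against -0.20 over all these genes. GINS1 and GINS2, subunits of the GINS complex, fell by 3.59 and fell by 2.89, and CDC6, which loads the ring, fell by 3.09. GMNN, the inhibitor of the loader CDT1, fell by 2.40, so the members that fell include an inhibitor of loading as well as loaders. The origin recognition subunit ORC6 fell by 1.37, while ORC3, ORC4 and ORC5 had 0.03, 0.11 and 0.25. With C, 0 of the 11 passed, and with P/C 3 did, against 3.86% of all genes, GINS2 by -2.93, GINS1 by -1.81 and DBF4, the activator of the CDC7 kinase, by -1.12.

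Among the enzymes of the replication fork, 6 of 12 tested genes of 27 listed fell in P, against 10.5% of all genes, and none rose. Their median was -0.98. FEN1, the flap endonuclease, fell by 2.58, and the clamp loader subunits RFC3, RFC5 and RFC2 fell by 2.31, 2.13 and 1.99. With C none passed, and with P/C 2 fell of the 12, against 3.86% of all genes, FEN1 by 1.53 and RFC5 by 1.43. Of 28 listed E2F and RB regulators, 5 were tested, and CCND1, the cyclin D1 gene, was the 1 that fell in P, by 1.02. With 5 genes tested, this count is too small to set against the 10.5% of all genes. None of the 5 passed with C or P/C. Of 22 tested mitosis genes, 12 fell in P and 13 in P/C, against 10.5% and 3.86% of all genes, and none in C. Their medians were -1.12 in P and -1.25 in P/C. The kinetochore gene NDC80 had the largest fall in P, where it fell by 2.03, and in P/C the cyclin gene CCNA2 fell by 2.90. Of 10 tested p53 targets, GDF15 and XPC rose in P, by 2.11 and 1.31, against 3.27% of all genes called higher, and 4 rose in P/C, against 2.27%, GDF15 by 2.99, CDKN1A (p21) by 2.57, SESN1 by 2.02 and XPC by 1.91. When P/C replicate 3 was left out, 0.662% of 2114 genes were called lower in P/C and 0.237% higher, and the counts there were 1 of 11 licensing genes, 0 of 12 fork enzymes and 2 of 22 mitosis genes lower, and 1 of 10 p53 targets higher. With P/C replicate 1 left out instead, 7.36% of 2132 genes were called lower and 3.42% higher, the counts were 5, 3 and 19 lower and 4 of 9 higher, and 1 of 5 E2F and RB regulators, TFDP1, was lower. With C replicate 1 left out, 2.64% of 2158 genes were called lower in C and 1.44% higher, and 0 of 11 licensing genes, 1 of 12 fork enzymes and 6 of 22 mitosis genes were lower in C, and 6 of 9 p53 targets higher. The same setting gave 4 fork enzymes and 15 mitosis genes lower and 6 p53 targets higher in P/C. In that comparison 5.19% of the 2158 genes were called lower and 3.06% higher. No list count was recomputed without an untreated array, so how far they rest on either untreated array was not tested. The P/C list counts given without a P/C array rest on the 1 array left.

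**Figure D4:**
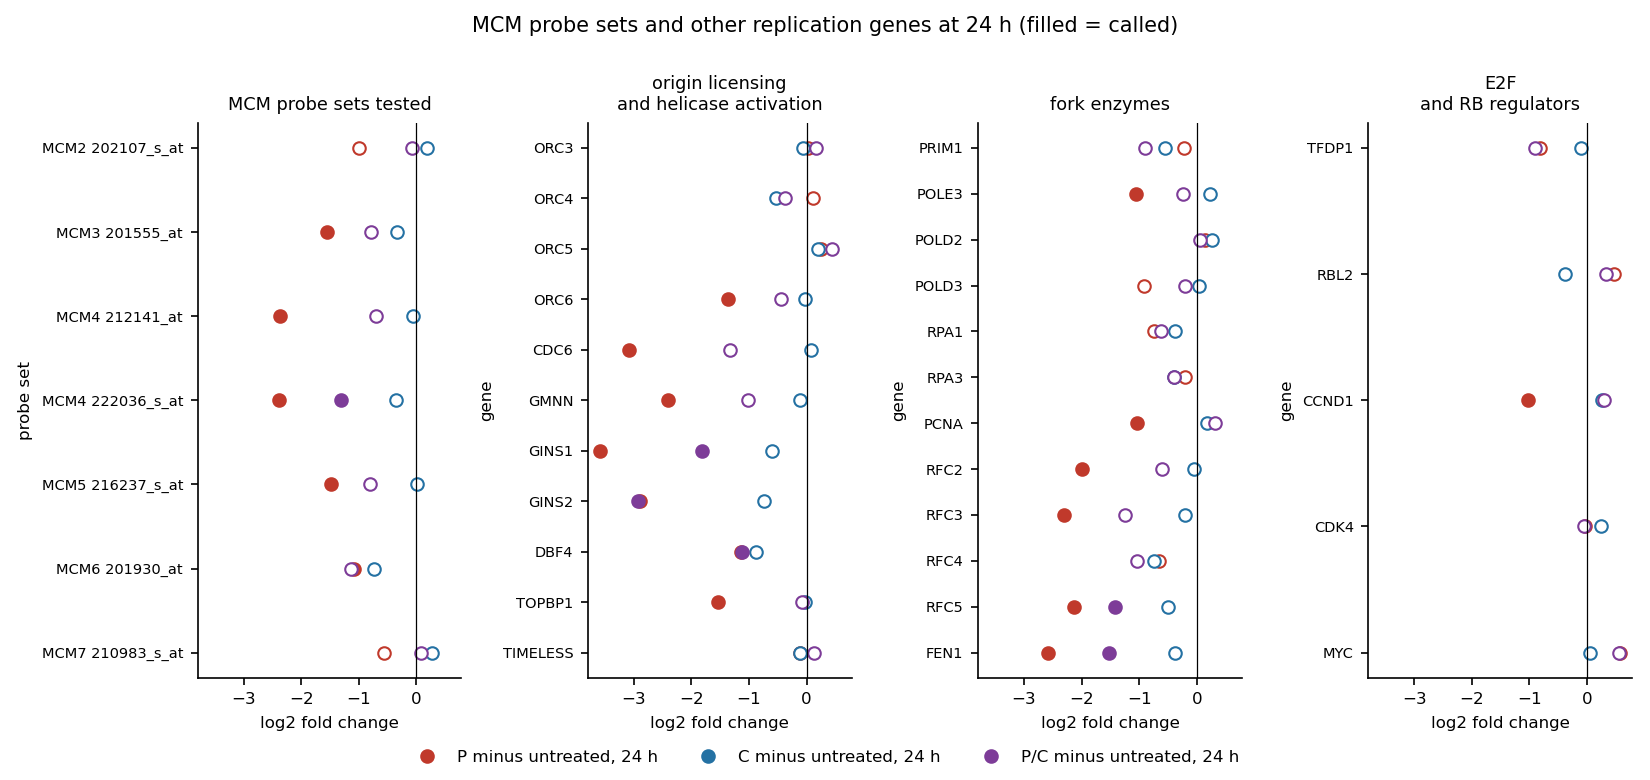
Log2 fold change at 24 h (x axis) of the tested MCM probe sets and of the tested genes of 3 lists (y axis), for P, C and P/C against untreated cells, with filled circles for called values. In P, 7 of 11 licensing genes and 6 of 12 fork genes are filled, and for C no circle is filled.

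The genes whose pattern over the 18 arrays was most like the mean of the 7 tested MCM probe sets were sought among the other tested probe sets with 1 symbol. They were DNMT1 (r = 0.964), RFC3 (0.962), NUP85 (0.962), GINS1 (0.955) and XRCC5 (0.954). DNMT1 is the maintenance DNA methyltransferase, NUP85 a nuclear pore subunit and XRCC5 a subunit of the Ku complex of double-strand break repair. Over the 15 arrays other than P at 24 h their r was 0.872, 0.877, 0.901, 0.839 and 0.956 in the same order. Their log2 fold changes in P ran from -0.97 for XRCC5 to -3.59 for GINS1, and in C from -0.07 for XRCC5 to -0.60 for GINS1.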

How the data were processed

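The authors hybridised the RNA of MSTO-211H cells to Affymetrix HGU133A arrays, dropped arrays whose raw intensities were outliers, and computed signals with GCRMA (version not stated in the labels or methods read here). The deposited values are log2 signals, corrected for background and normalized between arrays, and they carry no depth, so the number of arrays limits the precision. Groups, times and replicate numbers came from the labels. No 2 arrays of a group held the same values, with at most 0.0045% of values equal. The limits of the filter in the study's methods were applied to the deposited values (interquartile range of at least 0.25, signal of at least 100 or 6.64 on the log2 scale on at least 25% of arrays), and the 68 control probe sets were left out before the fit. The 3057 probe sets left are not the study's own set. limma 3.58.1 in R 4.3.3 estimated 1 mean per group for 8 groups (10 residual and 5.76 prior degrees of freedom), with Benjamini-Hochberg adjustment over the 3057 probe sets of each of the comparisons and two-sided tests. The script was tested on simulated data. Calls needed an adjusted p no higher than 0.05 together with a log2 fold change of at least 1 in size. In the annotation 19071 probe sets have 1 symbol, 1043 several and 2169 none, and no MCM symbol changed through its Entrez ID. All MCM probe sets are named, with up to 4 called genes of the largest change from each list and the 5 most similar genes. Where a listed gene had more than 1 probe set, that of the highest mean was used. The members and lists were chosen with earlier results of these data known. At 8 h arrays with the same replicate number deviated together (r = 0.203 to 0.66 over 6 pairs of groups, all over 0.1), and at 24 h 5 of 12 pairs did (-0.223 to 0.393), with no source that says what a number shares. The alternatives were other filters, scalings, array weights, the arrays of a comparison alone, a replicate block, another variance prior, no fold limit and leaving out arrays (for the gene lists and additivity chosen after seeing the data), with the filter recomputed on the arrays left.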

Additional observations from a re-analysis of the deposited data

Results flagged for a closer look

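For MCM4 222036_s_at the effect of P differed between 24 h and 8 h by -2.29 on the log2 scale, by a test of the difference itself (limma adjusted p = 0.0495). At 8 h the P and untreated arrays lay between 7.63 and 7.86, and at 24 h the P arrays lay between 5.13 and 5.55 and the untreated arrays at 7.36 and 7.98. The call was lost with no filter, after quantile normalization, after centring each array on its median and with the replicate block. It was also lost with the trended and robust prior and when 1 P array at 24 h was left out. With array weights 2 MCM probe sets were called, of 44 in all, and with the arrays of the comparison alone 3, of 49 in all. No cause was tested.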

How the results depend on the processing

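Of 218 counts of called MCM probe sets recomputed under the alternatives, 176 stayed within 1.5 times the reported count. For P against untreated at 24 h, with 5 called, the settings that kept both untreated arrays gave 4 to 6. Leaving out any 1 of the P arrays gave 4. The count was also lower without either untreated array, which leaves 1 untreated array. The counts for P against C and for all 8 h comparisons stayed within 1.5 times. For P/C against untreated at 24 h, with 1 called, there were 0 with no filter, with array weights, with the arrays of the comparison alone and with the replicate block, and 2 with a trended and robust prior. Leaving out single arrays gave 0 to 3 there, 0 to 3 for P/C against P, 0 to 3 for P/C against C and 0 to 3 for the departure from additivity. The count for P/C against P, 1 as reported, was 0 with no filter, after quantile normalization, with array weights and with the arrays of the comparison alone. The difference between the P effects at 24 h and 8 h, 1 as reported, was 0 with no filter, after quantile normalization, after centring each array on its median, with the replicate block, with the trended and robust prior and without any single array compared, but 2 with array weights and 3 with its arrays alone. C against untreated at 24 h, 0 as reported, had 1 with array weights. Without P/C replicate 1 and C replicate 1 together, the counts changed for C against untreated and for P/C against untreated, P and C. The count for the P/C effect at 24 h against 8 h changed too. Calls among all tested probe sets rose in each of these comparisons. With 1 P/C array left, no MCM counts of the comparisons with P/C are read from this setting. The counts above for leaving out a single P/C array also rest on 1 P/C array. They show only how far the calls depend on it. The numbers of all tested probe sets called also differed between the other settings. The paired fit with the replicate block changed no other count beyond this limit, and it left 5 called for P against untreated. Of 191 recomputed values of called MCM probe sets, all kept their sign and 37 lost the call. Of 1297 values of uncalled ones, 26 passed the limits and 97 changed sign. MCM2 left the filter when any 1 P array, C replicate 1 or P/C replicate 3 at 24 h was taken out, and MCM5 216237_s_at left it with a signal limit of 200. Untreated and P/C cells at 24 h have 2 arrays each, so 1 array decides several of these calls. The cause of the changes between settings was not tested.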
